A study of Homo sapiens with 8 samples.

Results

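The genes described here are ATF4 and 9 genes of the integrated stress response, namely DDIT3, DDIT4, ASNS, TRIB3, CHAC1, SESN2, PSAT1, PHGDH and SLC7A11. They were taken by symbol from the deposited table, which lists 38148 genes, and all 10 were found. Expression was measured by poly(A)-selected mRNA-seq in HT29, a BRAF-mutant human colorectal cancer cell line grown as a culture, left untreated or exposed for 24 h to 1 μM selumetinib, which inhibits MEK, the kinase that activates ERK. Cells of all groups were fixed with glyoxal and stained for cyclin B1, the protein made from CCNB1 that accumulates in G2, and a CCNB1-negative and a CCNB1-positive fraction were sorted. Both fractions of both treatments were sequenced, which gave 4 groups of 2 libraries. The study calls the matching experiment in another line, COLO205, one of biological replicates and refers back to it for HT29, but the labels of the HT29 libraries do not say whether those of a group come from separate cultures. If they do not, p-values measure only a technical spread between libraries. Because the samples are bulk RNA from sorted fractions, fewer cells expressing a gene and less RNA of it per cell cannot be told apart.

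The integrated stress response starts when kinases that sense amino acid shortage, unfolded protein, viral RNA or haem shortage phosphorylate the translation factor eIF2, which slows protein synthesis while the mRNA of ATF4 is translated better. ATF4 is a transcription factor that turns on genes for amino acid synthesis and uptake, together with DDIT3 (CHOP) and regulators that restrain growth and end the response. Since ATF4 is set largely by translation, the level of its mRNA is not a measure of its protein. Neither ATF4 protein nor eIF2 phosphorylation was analysed here.

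The labels of the samples contradict each other. In each of the 8 libraries the title gives the other treatment and the other fraction than the short description does, and the groups used here follow the descriptions, which are also the column names of the table. If the titles were right, each response to selumetinib given below would belong to the other fraction with its sign turned, and each difference between fractions to the other treatment with its sign turned. The difference between the responses of the fractions would not move. CCNB1, the sorting marker, had log2 values of 11.66 and 12.01 in the libraries described as untreated CCNB1-negative and 13.79 and 14.05 in those described as untreated CCNB1-positive. In the selumetinib-treated libraries it stood at 7.92 and 7.22 in the CCNB1-negative fraction and at 12.76 and 12.53 in the CCNB1-positive fraction. CCNB1 mRNA was thus higher in the fraction described as positive in both treatments. Under the titles it would be lower in the positive fraction of both treatments. The MEK-ERK output genes given below, of which 10 of 12 fell in each fraction, would then have risen with selumetinib for those 10.

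Reads on genes numbered 12696860 to 23916160 per library, and limma was run on the deposited log2 values of the 14219 genes whose mean reached 1 RPM (reads scaled by the authors, here per 1000000 gene reads of the largest library). Over all genes tested, 35.8% were called lower with selumetinib in the negative and 27.3% in the positive fraction. Of the 12 genes listed as MEK-ERK output, 10 fell with selumetinib in each fraction, and the median log2 changes were −1.28 in the negative and −1.29 in the positive fraction. Among them were ETV4 (log2 changes of −3.10 and −2.34), ETV5 (−2.95 and −2.02) and PHLDA1 (−1.72 and −1.73), while EGR1 rose by 1.17 and 1.58. All 7 epithelial markers had reads in every library, with 24949 to 122801 reads for KRT8, and the leukocyte marker PTPRC and the endothelial marker PECAM1 had at most 11 and 25 reads, against at most 1 for COL3A1 and 6 to 107 for COL1A1 of fibroblasts. The summed level of the 7 epithelial markers was 9982 to 10960 RPM in untreated and 4120 to 7752 RPM in treated libraries, and that of the 4 other markers 1.16 to 2.06 against 2.48 to 5.51 RPM. KRT8 and KRT18 gave most of the epithelial sum, and the 7 markers did not move together. Singly, 3 fell and 2 rose with selumetinib in the negative fraction, and 1 fell and 2 rose in the positive fraction. Reads of mitochondrial genes made up 4.44% to 7.8% of untreated and 11.9% to 14.8% of treated libraries, and MALAT1, a nuclear RNA, 0.303% to 0.386% against 2.01% to 4.42%. These shares moved with the treatment, and their part in the results was not tested.

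The scaling between libraries moves treated against untreated comparisons. With the scaling of the authors the median log2 change over the 14219 genes was 0.05 in the negative and 0.17 in the positive fraction. Quantile normalization moved these medians by −0.13 and −0.24, median-of-ratios scaling by −0.26 and −0.34, scaling to nuclear genes without MALAT1 by 0.31 and 0.25, and voom on the recovered reads by 0.14 and 0.11. The share of calls that were higher, 51.6% and 58.1%, then ran from 42.9% to 63.1% and from 40.9% to 71.9%. It was 47.5% between untreated fractions and 63.6% between treated fractions, against 64.8% and 47.9% with quantile normalization, and 93.5% for the difference between responses, against 70.9%. None of the members' called differences turned its direction under any alternative that was run.

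ATF4, at chr22:39519695-39522685 of GRCh38, had log2 values of 12.01 and 12.18 without and 11.26 and 10.94 with selumetinib in CCNB1-negative cells. In CCNB1-positive cells the values were 12.44 and 12.39 without and 11.67 and 11.66 with selumetinib. The treated libraries lay below the untreated ones in both fractions, with no overlap. For this and the other members, the share of all genes that separated in this way was not counted. ATF4 mRNA fell by 0.99 on the log2 scale (SE 0.15, limma, adjusted p = 4.1e-05) in CCNB1-negative cells, to 0.502 of the untreated level, and by 0.75 (SE 0.15, adjusted p = 6.8e-04) in CCNB1-positive cells, to 0.595. With quantile normalization the fall in CCNB1-positive cells was smaller, at −0.46 (adjusted p = 0.018). The responses of the fractions differed by 0.25 (95% confidence interval −0.21 to 0.70, adjusted p = 0.55).

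**Figure D1:**
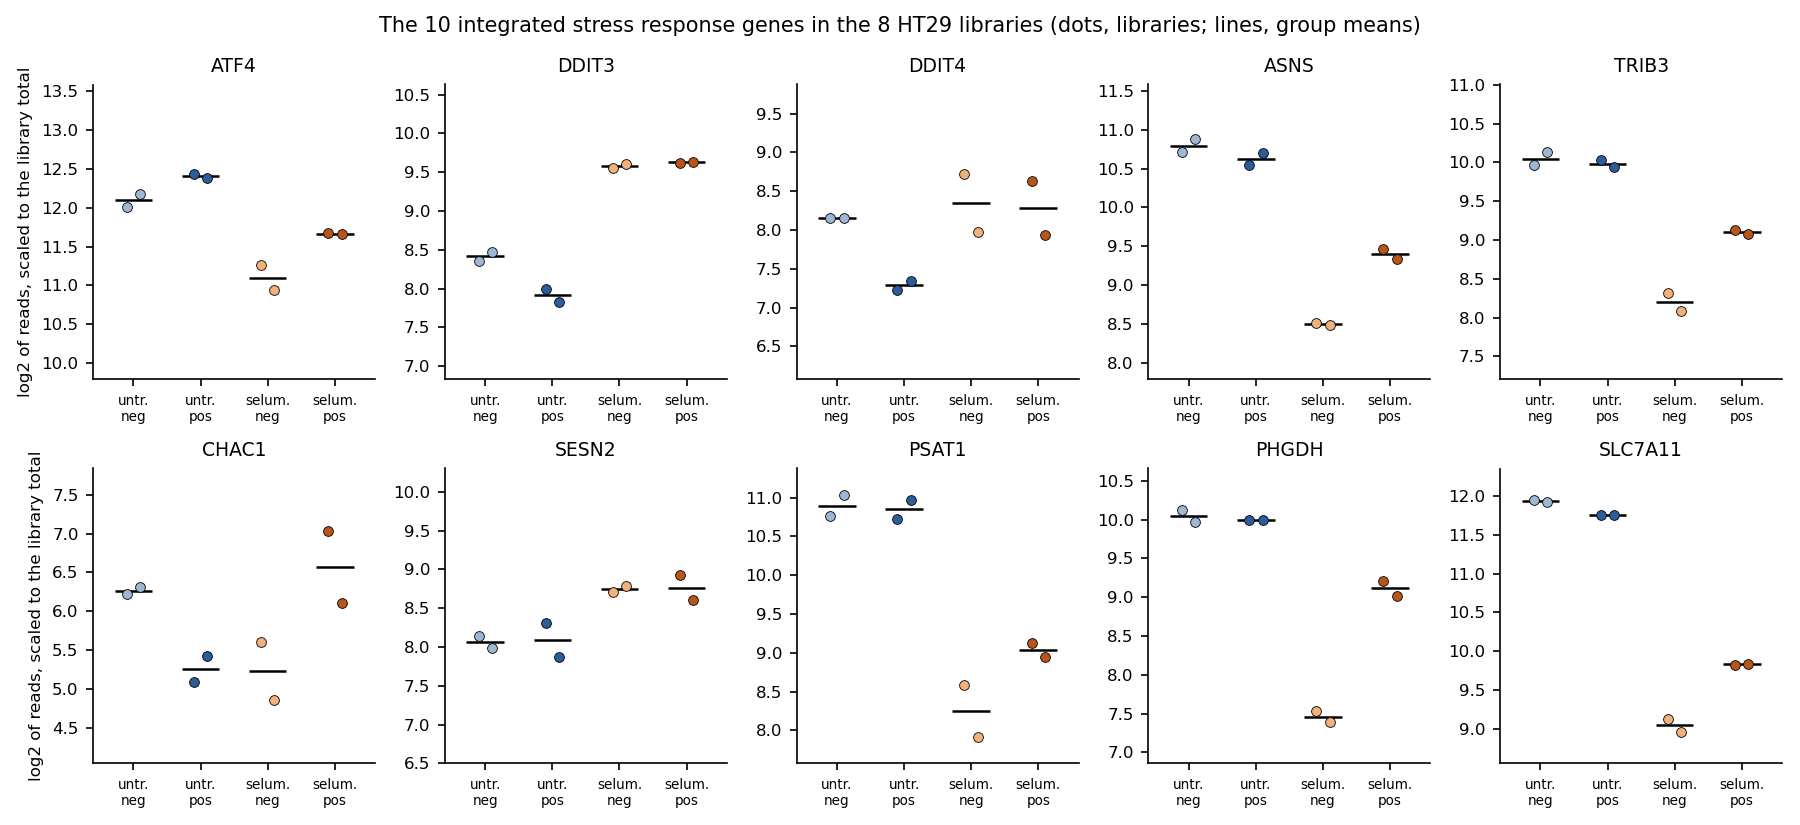
Log2 of reads scaled to the library total (y axis) of the 10 genes in the 4 groups (x axis: untr., untreated; selum., selumetinib; neg and pos, CCNB1-negative and CCNB1-positive), with dots for the 2 libraries and a line for the group mean. Every panel spans the same range of log2 units. DDIT3 and SESN2 stood higher in all 4 treated than in all 4 untreated libraries, and ATF4, ASNS, TRIB3, PSAT1, PHGDH and SLC7A11 lower. Of all 14219 genes tested, 10530 and 9288 were called with selumetinib in the negative and positive fraction. How many of all genes separated without overlap was not counted.

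DDIT3 encodes CHOP, a transcription factor induced by ATF4 and linked to cell death under prolonged stress. Its log2 values rose from 8.36 and 8.47 to 9.56 and 9.60 in CCNB1-negative cells and from 8.0 and 7.83 to 9.62 and 9.63 in CCNB1-positive cells. All 4 treated libraries lay above all 4 untreated ones. The rise was 1.17 (SE 0.16, limma, adjusted p = 1.6e-05), or 2.24-fold, in CCNB1-negative and 1.71 (SE 0.16, adjusted p = 1.4e-06), or 3.27-fold, in CCNB1-positive cells, opposite to that of ATF4. The responses differed by 0.54 (95% confidence interval 0.06 to 1.03, adjusted p = 0.2). DDIT3 (chr12:57516588-57521737, minus strand) overlaps MARS and MBD6 on the plus strand and AC022506.1 on its own strand in the table. The methods name a directional library kit, but the sources used here do not state how strand was handled in counting these libraries. Strand cannot separate DDIT3 from AC022506.1. MARS, a tRNA synthetase gene, fell in the same comparisons, with log2 changes of −1.54 and −1.22.

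TRIB3 (chr20:362835-397559) encodes a pseudokinase that is induced by ATF4 and CHOP and dampens their activity. Its log2 values were 9.97 and 10.13 in untreated and 8.32 and 8.08 in treated CCNB1-negative cells. In CCNB1-positive cells they were 10.03 and 9.94 against 9.13 and 9.08. The treated libraries did not overlap the untreated ones, and within the treated ones the fractions did not overlap. TRIB3 fell by 1.84 (SE 0.16, adjusted p = 1.9e-07) and fell by 0.88 (SE 0.16, adjusted p = 2.7e-04) on the log2 scale, to 0.278 and 0.545 of the untreated level.

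CHAC1 (chr15:40952962-40956512), whose enzyme breaks down glutathione, was the gene of the set with the fewest reads. It had 69 and 63 reads in untreated and 31 and 17 in treated CCNB1-negative libraries, which are log2 values of 6.22 and 6.31 against 5.60 and 4.85. In CCNB1-positive libraries it had 34 and 39 reads without and 116 and 44 with selumetinib, or log2 values of 5.09 and 5.42 against 7.03 and 6.11. CHAC1 moved in opposite directions in the fractions, with a log2 change of −1.04 (SE 0.38, adjusted p = 0.025) in the negative and of 1.32 (SE 0.38, adjusted p = 8.2e-03) in the positive fraction. Its fall was not past the threshold without untreated CCNB1-negative replicate 1 (adjusted p = 0.063), untreated CCNB1-negative replicate 2 (0.09) or selumetinib-treated CCNB1-negative replicate 2 (−0.66, 0.19), nor without the filter on low values (0.069), with nuclear scaling (−0.73, 0.11) or with voom (0.061), and it was larger, at −2.13, with quantile normalization. Its rise was lost without selumetinib-treated CCNB1-positive replicate 1 (0.86, adjusted p = 0.13) and with quantile normalization (0.20, adjusted p = 0.69).

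DDIT4 and SESN2 encode stress proteins that restrain mTORC1, the kinase complex that drives growth. DDIT4 (chr10:72273924-72276036) had log2 values of 8.15 and 8.16 in untreated and 8.72 and 7.97 in treated CCNB1-negative cells, which overlap, and the difference of 0.19 was not past the threshold (95% confidence interval −0.38 to 0.76, adjusted p = 0.53). In CCNB1-positive cells its values were 7.23 and 7.34 against 8.63 and 7.94, with no overlap, a rise of 1.00 (SE 0.27, adjusted p = 4.6e-03). The responses differed by 0.81 (95% confidence interval 0.00 to 1.62, adjusted p = 0.25). Replicate 1 was the higher of the treated libraries in both fractions. Without selumetinib-treated CCNB1-positive replicate 1 the rise was 0.66 (adjusted p = 0.078), and with quantile normalization it was 0.42 (adjusted p = 0.22).

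SESN2 (chr1:28259518-28282491) had log2 values of 8.14 and 7.98 in untreated and 8.71 and 8.78 in treated CCNB1-negative cells. In CCNB1-positive cells the values were 8.31 and 7.87 against 8.93 and 8.60. All 4 treated libraries stood above all 4 untreated ones, although untreated CCNB1-positive replicate 1 came near to them. SESN2 rose by 0.68 (SE 0.20, adjusted p = 7.3e-03) and 0.67 (SE 0.20, adjusted p = 9.4e-03), with a difference between the fractions of −0.01 (95% confidence interval −0.62 to 0.60). The rise in CCNB1-negative cells was 0.42 (adjusted p = 0.055) with median-of-ratios scaling and 0.60 (adjusted p = 0.051) without untreated CCNB1-negative replicate 2. In CCNB1-positive cells it was 0.33 (0.14) with median-of-ratios scaling, 0.31 (0.17) with quantile normalization, 0.45 (0.13) without untreated replicate 2 and 0.50 (0.1) without treated replicate 1, where the values in parentheses are adjusted p.

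ASNS makes asparagine from aspartate, and its promoter is a textbook target of ATF4. Its log2 values were 10.71 and 10.88 in untreated and 8.51 and 8.49 in treated CCNB1-negative cells. In CCNB1-positive cells they were 10.55 and 10.70 against 9.46 and 9.33. Treated and untreated libraries were far apart, and the treated CCNB1-positive libraries lay between the untreated and the treated CCNB1-negative ones. ASNS fell by 2.29 (SE 0.15, limma, adjusted p = 1.7e-08) in CCNB1-negative cells, to 0.204 of the untreated level, and by 1.23 (SE 0.15, adjusted p = 9.9e-06) in CCNB1-positive cells, to 0.427. ASNS (chr7:97851677-97872542, minus strand) overlaps AC079781.5 on the same strand in the table.

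To show which members carry the letters of the element that ATF4 binds with C/EBP partners, TGATGNAA was searched on both strands of the RefSeq promoter windows of GRCh38.p14, 250 bases before to 50 after each gene's start, for the 9 members with an entry. SLC7A11 had no entry. These letters occurred in ASNS and CHAC1, or 2 of 9 members, and in 3.67% of the 27305 promoters of the table. Both matches are printed on the strand of the gene, with the motif in capitals.
ASNS, chr7:97872461-97872484, minus strand: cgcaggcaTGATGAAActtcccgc
CHAC1, chr15:40953254-40953277, plus strand: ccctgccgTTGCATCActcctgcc
The match in ASNS starts at position −68 relative to the start that the RefSeq table uses, and the one in CHAC1, on the opposite strand, at −209. For both genes that start lies downstream of the one in the deposited table, so both matches fall inside the gene bounds printed here. The longer form TGATGCAAT, every match of which also holds TGATGNAA, and the cyclic AMP response element TGACGTCA occurred in 0.264% and 1.98% of promoters and in 0 of the 9 members. Of the 2 genes with these letters, ASNS fell in both fractions, and CHAC1 fell in the CCNB1-negative and rose in the CCNB1-positive one, with the limits given above. Whether the letters bear on direction was not tested, and sites outside the windows were not searched.

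PHGDH and PSAT1 catalyse the first and the next step of serine synthesis from a glycolytic intermediate. PSAT1 (chr9:78297125-78330093) had log2 values of 10.76 and 11.03 in untreated and 8.58 and 7.92 in treated CCNB1-negative cells. In CCNB1-positive cells its values were 10.73 and 10.97 against 9.12 and 8.95. It fell in both fractions, with log2 changes of −2.64 (SE 0.20, adjusted p = 8.0e-08) and −1.82 (SE 0.20, adjusted p = 5.4e-06).

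PHGDH (chr1:119648411-119744226) stood at 10.13 and 9.97 in untreated and at 7.53 and 7.39 in treated CCNB1-negative cells. In CCNB1-positive cells the log2 values were 10 in both untreated libraries against 9.21 and 9.02. The treated CCNB1-negative libraries were thus far below the other 6, and no treated library overlapped an untreated one. PHGDH fell by 2.59 (SE 0.16, adjusted p = 1.2e-08), to 0.166 of the untreated level, in CCNB1-negative cells and by 0.89 (SE 0.16, adjusted p = 2.8e-04), to 0.541, in CCNB1-positive cells.

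SLC7A11 (chr4:138164097-138242349) encodes the light chain of the cystine and glutamate exchanger, which supplies cysteine for glutathione and is a target of both ATF4 and NRF2. Its log2 values were 11.95 and 11.92 in untreated and 9.13 and 8.96 in treated CCNB1-negative cells. In CCNB1-positive cells they were 11.76 and 11.75 against 9.82 and 9.84. SLC7A11 fell in both fractions, with log2 changes of −2.89 (SE 0.14, adjusted p = 1.8e-09) and −1.93 (SE 0.14, adjusted p = 2.0e-07), to 0.135 and 0.263 of the untreated level. Its antisense gene SLC7A11-AS1 had 2 to 15 reads per library.

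**Figure D2:**
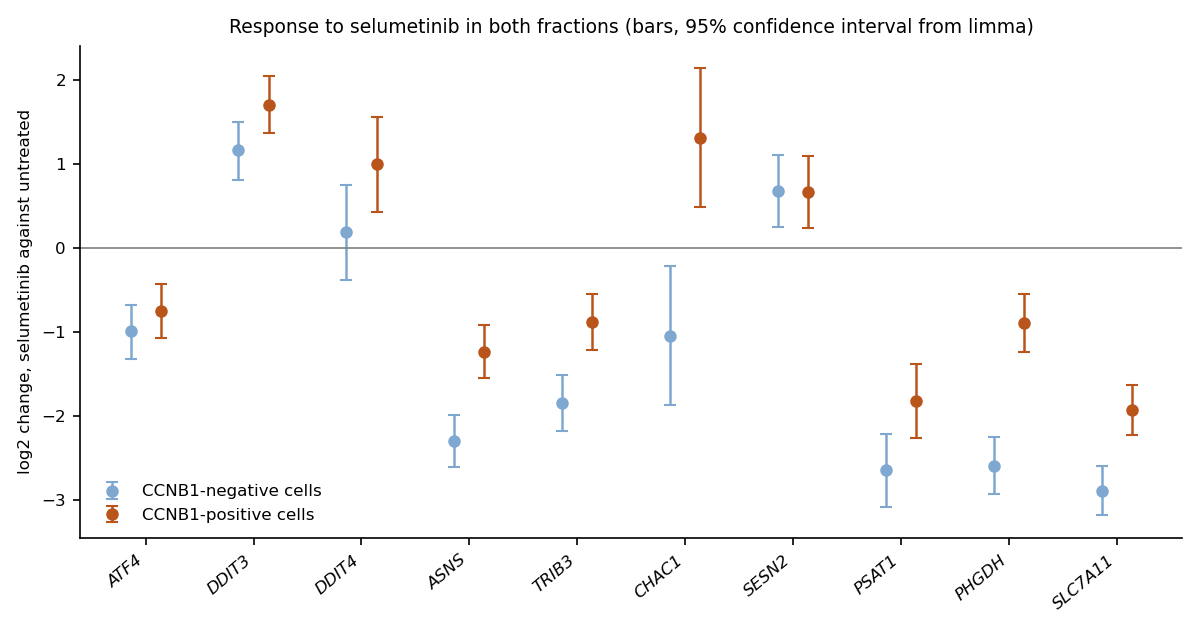
Log2 change with selumetinib (y axis) for each of the 10 genes (x axis) in CCNB1-negative cells (blue) and CCNB1-positive cells (orange); points are limma estimates from 2 libraries per group and bars are 95% confidence intervals. SLC7A11 lies at −2.89 and −1.93, DDIT3 rose by 1.17 and 1.71, and CHAC1 lies on opposite sides of 0.

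Counted over the set, 7 of the 10 genes fell and 2, DDIT3 and SESN2, rose with selumetinib in CCNB1-negative cells, while DDIT4 was not past the threshold. Over all genes tested, 35.8% were called lower and 38.2% higher. In CCNB1-positive cells 6 fell and 4, DDIT3, DDIT4, CHAC1 and SESN2, rose, against 27.3% lower and 38.0% higher among all genes. The median log2 change of the 10 genes was −1.44 and −0.81, beside 0.05 and 0.17 for all genes tested. The genes of amino acid synthesis and cystine uptake, ASNS, PSAT1, PHGDH and SLC7A11, fell in both fractions.

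Between the fractions of untreated cells, 0 of the 10 genes passed the threshold with limma, where 1.36% of all genes were called higher and 1.51% lower in CCNB1-positive cells. At an unadjusted p under 0.05 there were 3, DDIT3 at −0.50 (adjusted p = 0.14), DDIT4 at −0.87 (0.12) and CHAC1 at −1.02 (0.23), where 1920 of the 14219 genes had such a p. With voom 0 passed, and a fit of only the groups compared called 1, DDIT4 (adjusted p = 0.048). A replicate block within treatment, which takes same-numbered libraries as pairs, called 4. They were DDIT4 (adjusted p = 7.0e-04), DDIT3 (0.013), CHAC1 (0.028) and ATF4 (0.046), and among all genes 1923 passed in place of 408. The labels do not say that replicate numbers mark pairs. The untreated CCNB1-positive libraries of DDIT3, DDIT4 and CHAC1 all lay below the untreated CCNB1-negative ones. How many of all genes separated in this way was not counted, and with 2 libraries per group such a separation alone does not show a difference. Without that block, ATF4 stood higher in CCNB1-positive cells by 0.32 (95% confidence interval −0.01 to 0.64, adjusted p = 0.38). For ASNS, TRIB3, SESN2, PSAT1, PHGDH and SLC7A11 the difference ran from −0.18 to 0.03.

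Between the fractions of selumetinib-treated cells, 7 of the 10 genes were higher in CCNB1-positive cells and 0 lower, where 13.8% of all genes were called higher and 7.87% lower. The median difference was 0.78, beside 0.02 for all genes. PHGDH differed by 1.65 (SE 0.16, limma, adjusted p = 4.3e-06), or 3.15-fold, CHAC1 by 1.34 (SE 0.38, adjusted p = 0.025), TRIB3 by 0.90 (SE 0.16, adjusted p = 1.2e-03) and ASNS by 0.89 (SE 0.15, adjusted p = 8.4e-04). SLC7A11 and PSAT1 each differed by 0.78, with adjusted p of 1.3e-03 and 0.015, and ATF4 by 0.56 (adjusted p = 0.018). DDIT3 differed by 0.05 (95% confidence interval −0.30 to 0.39), SESN2 by 0.02 (−0.41 to 0.45) and DDIT4 by −0.06 (−0.63 to 0.51), which are also 95% intervals. Without selumetinib-treated CCNB1-negative replicate 2, or without selumetinib-treated CCNB1-positive replicate 1, 4 genes passed, and the calls lost in both cases were those of ATF4 (0.40 and 0.56, adjusted p = 0.14 and 0.1), CHAC1 (0.97 and 0.89, adjusted p = 0.21 and 0.26) and PSAT1 (0.45 and 0.70, adjusted p = 0.17 and 0.11). That of ATF4 was also lost without selumetinib-treated CCNB1-positive replicate 2 (0.084), and that of CHAC1 without the filter on low values (0.085).

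The difference between the responses themselves was tested by the interaction term. It was past the threshold for 5 of the 10 genes, each with the more positive response in CCNB1-positive cells, where 4.99% of all genes were called in that direction and 0.345% in the other. PHGDH had a difference of 1.70 (SE 0.23, adjusted p = 2.2e-04), ASNS of 1.07 (SE 0.21, adjusted p = 6.4e-03) and SLC7A11 of 0.96 (SE 0.19, adjusted p = 7.8e-03). TRIB3 differed by 0.97 (SE 0.22, adjusted p = 0.019) and CHAC1 by 2.36 (SE 0.54, adjusted p = 0.02). With a replicate block within treatment 8 genes passed, and among all genes 3850 in place of 758. The 8 included DDIT3 (adjusted p = 0.03), DDIT4 (8.8e-03) and PSAT1 (1.8e-03). Without that block the difference for PSAT1 was 0.82 (95% confidence interval 0.21 to 1.44, adjusted p = 0.13). TRIB3 lost its call without any of 6 libraries in turn, untreated CCNB1-negative replicate 2 (adjusted p = 0.11), untreated CCNB1-positive replicates 1 (0.058) and 2 (0.079), treated CCNB1-negative replicate 2 (0.053) and treated CCNB1-positive replicates 1 (0.077) and 2 (0.063). CHAC1 lost it without untreated CCNB1-negative replicate 2 (adjusted p = 0.067), untreated CCNB1-positive replicate 1 (0.051), treated CCNB1-negative replicate 2 (0.091) or treated CCNB1-positive replicate 1 (0.12), and without the filter on low values (0.1), while PSAT1 gained one without treated CCNB1-negative replicate 1 (1.15, adjusted p = 0.012).

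Differences between genes within a library do not depend on the factor by which that library is scaled, although quantile normalization can move them. DDIT3 minus ATF4, in log2 units, was −3.65, −3.71, −4.44 and −4.55 in the 4 untreated libraries and −1.70, −1.34, −2.04 and −2.03 in the treated ones, in the order CCNB1-negative then CCNB1-positive. DDIT3 minus TRIB3 moved from −1.61, −1.66, −2.03 and −2.11 to 1.24, 1.51, 0.49 and 0.55. Relative to the mRNAs of its activator ATF4 and its inhibitor TRIB3, the mRNA of CHOP was thus higher in every treated than in every untreated library. This followed from the rise of DDIT3 and the falls of ATF4 and TRIB3 given above. DDIT3 minus CHAC1 did overlap, at 2.13, 2.16, 2.91 and 2.42 in untreated and 3.96, 4.75, 2.59 and 3.51 in treated libraries.

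PHGDH minus ATF4 was −1.87, −2.21, −2.44 and −2.38 in untreated libraries and −3.73 and −3.55 in treated CCNB1-negative libraries, but −2.46 and −2.64 in treated CCNB1-positive ones, close to their untreated counterparts. PSAT1 minus PHGDH was 0.63, 1.06, 0.73 and 0.97 in untreated libraries and 1.05 and 0.53 in treated CCNB1-negative libraries, against −0.09 and −0.07 in treated CCNB1-positive libraries. These neighbouring steps of serine synthesis thus kept their ratio in treated CCNB1-negative cells within the range of the untreated libraries or near it, and not in treated CCNB1-positive cells, a pattern chosen after its values were seen. SLC7A11 minus SLC3A2, the gene of its heavy chain, went from −1.0, −0.89, −1.24 and −1.24 to −1.99, −2.0, −2.25 and −2.12.

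**Figure D3:**
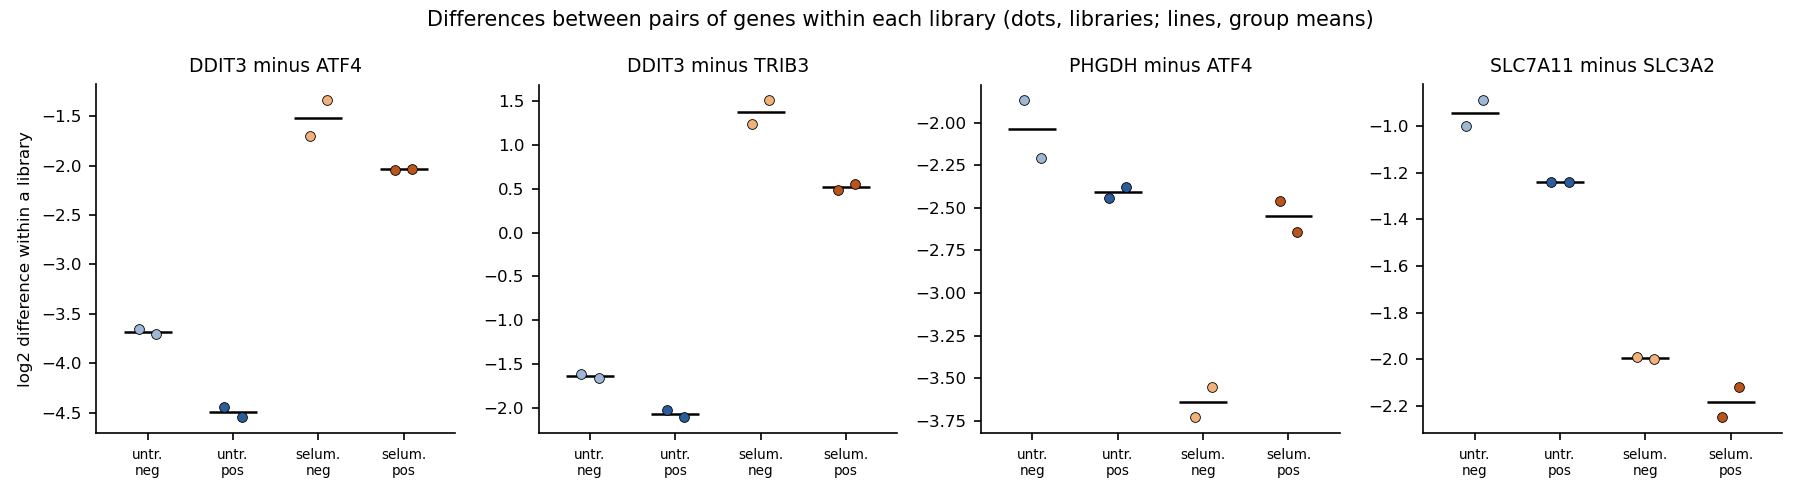
Log2 difference between 2 genes of the same library (y axis) in the 4 groups (x axis: untr., untreated; selum., selumetinib; neg and pos, the CCNB1 fractions), with dots for the 2 libraries and lines for group means. Only changes between groups can be read, since gene lengths differ. DDIT3 minus ATF4 was −4.55 to −3.65 in untreated and −2.04 to −1.34 in treated libraries.

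Levels are given here per length, as RPM per kilobase of all annotated exons of a gene merged. That length can exceed the length of the mRNA present, so the order of genes depends on the annotation. PHGDH was divided by 9187 bases and TRIB3 by 3291, while both had similar RPM in untreated CCNB1-negative cells (44.4 and 44.3). In untreated CCNB1-negative cells ATF4 was highest at 70.1 ± 5.83 (SD, n = 2), followed by PSAT1 at 36.2 ± 4.69, SLC7A11 at 17 ± 0.191 and ASNS at 15.2 ± 1.24. TRIB3 at 13.5 ± 1.03 and DDIT3 at 10.9 ± 0.579 came next, then DDIT4 at 5.62 ± 0.0279, PHGDH at 4.83 ± 0.398, SESN2 at 3.24 ± 0.253 and CHAC1 at 1.57 ± 0.066 RPM per kilobase. No neighbours in this order overlapped between libraries, although ASNS at 14.3 to 16.1 and TRIB3 at 12.7 to 14.2 almost met. In treated CCNB1-negative cells ATF4 stayed highest at 35.3 ± 5.61 and DDIT3 was next at 24.5 ± 0.452, above DDIT4 at 6.63 ± 2.37, PSAT1 at 5.93 ± 1.88 and SESN2 at 5.17 ± 0.185, whose libraries overlapped. TRIB3 stood at 3.76 ± 0.439, ASNS at 3.1 ± 0.0376, SLC7A11 at 2.29 ± 0.199, and PHGDH and CHAC1 last at 0.803 ± 0.0558 and 0.79 ± 0.286 RPM per kilobase, also with overlap.

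In untreated CCNB1-positive cells the levels per kilobase were 87.3 ± 2.27 for ATF4, 35.2 ± 4.14 for PSAT1, 15 ± 0.0424 for SLC7A11, 13.5 ± 0.976 for ASNS and 12.9 ± 0.524 for TRIB3. DDIT3 stood at 7.74 ± 0.637, PHGDH at 4.67 ± 0.0046, SESN2 at 3.34 ± 0.714, DDIT4 at 3.08 ± 0.169 and CHAC1 at 0.782 ± 0.126, and the libraries of SESN2 and DDIT4 overlapped, as did those of ASNS and TRIB3. With selumetinib ATF4 was at 51.9 ± 0.111, DDIT3 at 25.3 ± 0.1 and PSAT1 at 9.94 ± 0.808. DDIT4 at 6.34 ± 2.1 overlapped TRIB3 at 7.01 ± 0.178, ASNS at 5.75 ± 0.358 and SESN2 at 5.29 ± 0.862, and the last pair also overlapped each other. SLC7A11 was at 3.94 ± 0.0417, PHGDH at 2.53 ± 0.232 and CHAC1 at 2.04 ± 0.883, the last pair again overlapping. With these merged exon lengths, DDIT3 was thus the sixth gene of the set in both untreated fractions and second to ATF4 in both treated ones.

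Upstream of ATF4, the list of eIF2 kinases, eIF2 subunits, its exchange factor eIF2B and their regulators had 14 genes tested. In CCNB1-negative cells 9 fell and 1 rose, in CCNB1-positive cells 10 fell and 1 rose, with medians of −0.71 and −0.68. The largest mean falls past the threshold in both fractions included those of EIF2S1, the subunit that is phosphorylated, with log2 changes of −2.48 and −1.69, EIF2B2 (−1.98 and −1.62) and GCN1, an activator of the kinase GCN2 (−1.11 and −1.02). The gene that rose in both was EIF2AK3, the kinase PERK of the endoplasmic reticulum, by 1.02 and 1.0, named after its values were seen. Among 10 partner and feedback factors 2 rose and 5 fell in CCNB1-negative and 4 rose and 4 fell in CCNB1-positive cells, with medians of −0.54 and −0.14. Beside the counts of these and the following lists, 38.2% of all genes tested were called higher and 35.8% lower in CCNB1-negative cells. In CCNB1-positive cells the shares were 38.0% and 27.3%.

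NUPR1, a stress-induced cofactor, had log2 values of 5.64, 5.95, 4.64 and 3.94 in the untreated libraries, CCNB1-negative first, and 7.47, 7.59, 8.65 and 8.18 in the treated ones. It rose by 1.74 and 4.12, with a difference between the responses of 2.38 (SE 0.44, adjusted p = 3.8e-03). ATF3, a stress-induced transcription factor downstream of ATF4, rose by 2.0 and 3.42, with a difference of 1.42 (SE 0.34, adjusted p = 0.025). CEBPB, which pairs with ATF4 and CHOP, fell, with log2 changes of −1.98 and −1.22. For ATF3 and NUPR1, as for DDIT3, every treated library stood above every untreated one. Both were named for the size of their changes, and how many of all genes separated in this way was not counted.

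Genes of translation and amino acid supply fell together with ASNS and PSAT1. Of 13 genes of tRNA charging and export, 12 fell and 0 rose in each fraction, with medians of −1.44 and −1.11, among them TARS (log2 changes of −2.53 and −1.73), GARS (−2.15 and −1.44) and the export factor XPOT (−1.77 and −1.30), and CARS was not past the threshold. Of 8 amino acid transporters tested, 8 fell in the negative and 7 in the positive fraction, while 0 rose, with medians of −1.87 and −1.17. They included SLC7A5, which imports large neutral amino acids (−3.10 and −2.15), the glutamine transporter SLC1A5 (−2.69 and −1.80) and the arginine transporter SLC7A1 (−2.04 and −1.28). Of 11 enzymes of serine, folate-linked carbon and proline metabolism tested, 10 and 8 fell and 0 rose, with medians of −1.34 and −1.0. Those of the folate cycle, MTHFD2 (−2.86 and −1.74), MTHFD1 (−2.54 and −2.02) and SHMT2 (−2.13 and −1.46), had the largest mean falls. PSPH, the last enzyme of serine synthesis, was at −0.11 and −0.14, neither past the threshold, beside the falls of PHGDH and PSAT1.

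Of 14 other reported targets of ATF4 or CHOP 10 were tested. In CCNB1-negative cells 2 rose and 3 fell, where 38.2% of all genes were called higher and 35.8% lower. In CCNB1-positive cells 5 rose and 2 fell, against 38.0% and 27.3%, and the medians of the list were 0.02 and 0.22. The list was not tested against these shares. KLHL24 rose by 4.14 and 3.90 and GDF15, a secreted stress cytokine, by 1.30 and 2.29, while EIF4EBP1, a repressor of cap-dependent translation, fell (−2.48 and −1.45). Genes of the unfolded protein response and chaperones of the endoplasmic reticulum fell for 11 of 14 in each fraction, with 1 rising and medians of −1.68 and −1.04. The largest mean falls were in HSPA5, which encodes BiP (−2.70 and −1.67), SDF2L1 (−2.68 and −1.36) and MANF (−2.55 and −1.21), and the sensor ERN1 rose by 1.95 and 1.40. Among 11 genes of NRF2 and glutathione, which include SLC7A11, 8 fell and 0 rose in CCNB1-negative and 7 fell and 1 rose in CCNB1-positive cells, with medians of −1.49 and −0.79, and SRXN1 (−2.91 and −1.77) fell next to SLC7A11.

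The paralogs of the members moved apart from them in places. SESN1 and SESN3, which share the role of SESN2, rose by 2.80 and 2.60 and by 3.02 and 2.65, beside 0.68 and 0.67 for SESN2. SESN3 had few reads, with 11, 12, 23 and 13 in the untreated libraries, all below 1 RPM, and 60, 74, 100 and 73 in the treated ones. It passed the filter on low values only through its treated libraries, so its rise was tied to that filter. CHAC2 fell (−3.54 and −1.40), with log2 values of 8.21, 8.78, 8.24 and 8.69 in untreated and 5.24, 4.67, 6.96 and 7.16 in treated libraries, CCNB1-negative first. Of the 7 paralogs tested, 3 rose and 4 fell in CCNB1-negative and 3 rose and 3 fell in CCNB1-positive cells, with medians of −0.52 and −0.25. SESN3 is among those that rose in each fraction. Among all genes, 38.2% were called higher and 35.8% lower in CCNB1-negative cells, and 38.0% and 27.3% in CCNB1-positive cells.

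**Figure D4:**
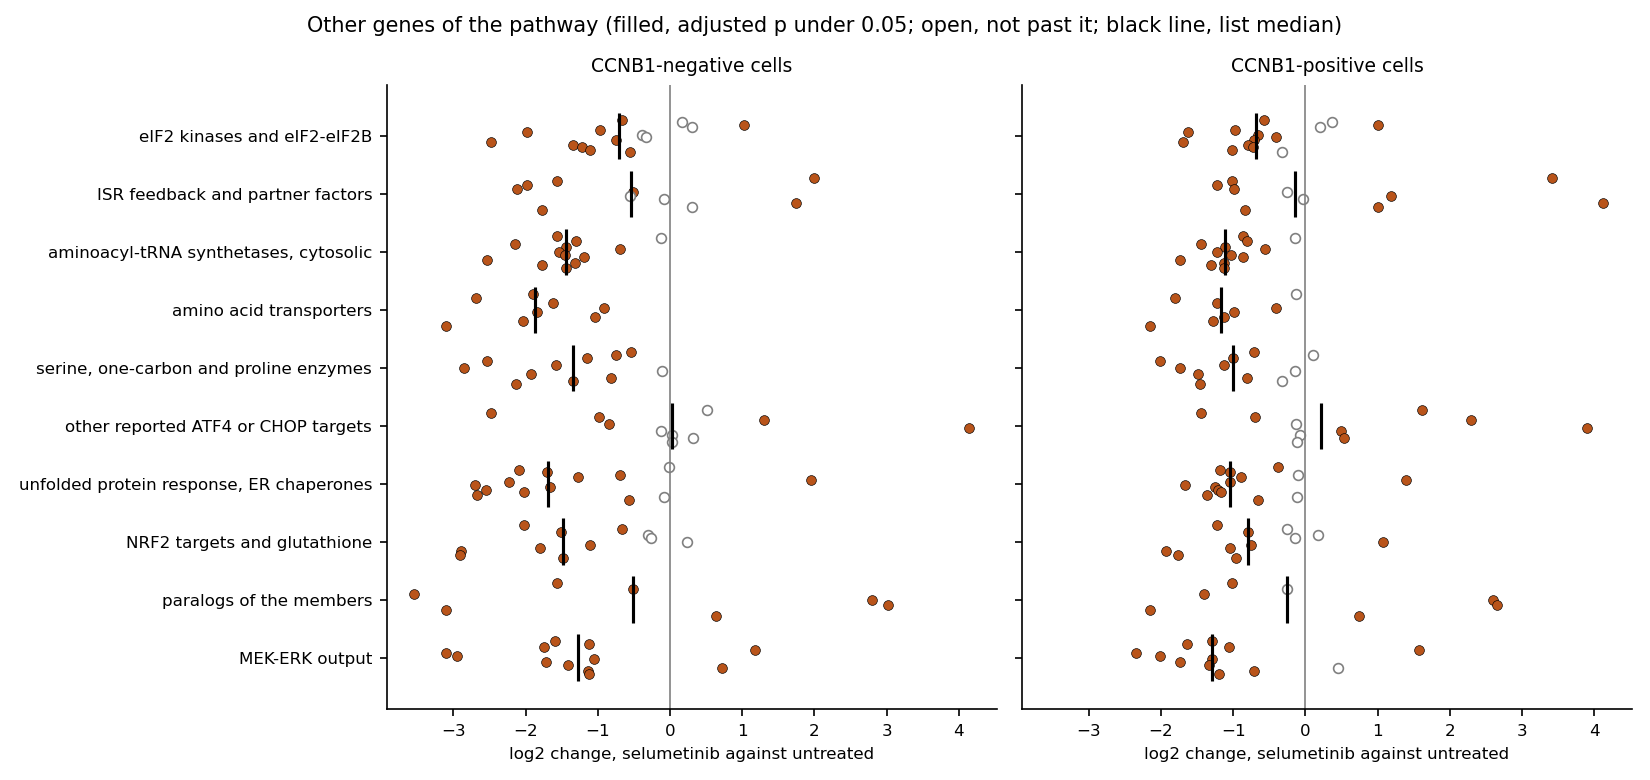
Log2 change with selumetinib (x axis) of the genes of 10 lists (y axis) in CCNB1-negative cells (left) and CCNB1-positive cells (right), from 2 libraries per group; each dot is a gene, filled dots have an adjusted p under 0.05 in limma and the black line is the list's median. The medians for tRNA synthetases were −1.44 and −1.11 and those for the other ATF4 or CHOP targets 0.02 and 0.22.

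Across the 8 libraries, the genes whose log2 values followed those of ATF4 most closely among the 10118 genes that averaged 10 RPM or more were HNRNPDL and DHPS (Pearson r = 0.994), TIMM10 and COQ7 (0.993) and RBM8A (0.992). Of the members above that level, TRIB3 had r = 0.96, PSAT1 0.95, ASNS and PHGDH 0.94 and SLC7A11 0.93, of which TRIB3 ranked highest, as the gene at rank 522. DDIT3 had r = −0.88, SESN2 −0.79 and DDIT4 −0.61. These values describe 8 libraries that share treatments and fractions, and CHAC1 was below the level compared.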

How the data were processed

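Per the labels and the methods, adapters were removed by the authors using Trim Galore 0.5.0, alignment to GRCh38 used HISAT2 2.1.0, and SeqMonk gave the deposited unit, log2 of gene reads after scaling each library to its total. The annotation release and strand handling are not given in the sources used here. The labels name another growth medium than the methods. All 8 value columns were used and 0 set aside. Genes without a read stand at 0.9 reads. Whole reads were recovered within a tolerance of 0.3 for 100% of genes with reads. RPM here are 2 raised to the deposited log2 value, divided by the 23916160 gene reads of the largest library and multiplied by 1000000. For levels per kilobase they were divided by the merged length of all exons that GENCODE annotates to the gene. Without molecular identifiers, read counts speak to counting error alone. Replicates differed by more than sampling noise, with a chi-square per gene of 11.1 to 20.2.

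Genes averaging 1 RPM or more (log2 value 4.58) were tested with limma 3.58.1 (R 4.3.3) with a mean-variance trend, 1 coefficient per group and Benjamini-Hochberg adjustment over 14219 genes, at an adjusted p of 0.05. The fit was tested on simulated data. Python 3.11.15, pandas 2.3.3, numpy 2.4.6, scipy 1.17.1 and matplotlib 3.10.9 served the other steps. Promoters came from a RefSeq table. Members and lists were chosen with earlier results of these data known. Named genes are the members, the 3 of each list with the largest mean change past the threshold in both fractions in the same direction, and the 5 most like ATF4. One gene that this rule names is not reported here. CARS, PSPH, EIF2AK3, ERN1, EGR1, CHAC2, MARS, SLC3A2, the overlapping and antisense genes, MALAT1 and the cell type markers were named outside that rule. Alternatives were other thresholds, filters, pseudocounts and scalings, voom, replicate blocks, only the groups compared and leaving out each library.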

Additional observations from a re-analysis of the deposited data

Results flagged for a closer look

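By the interaction term in limma, 5 of the 10 genes answered selumetinib differently in the fractions, and in each the change lay higher in the positive fraction, where 4.99% of all genes were called in that direction and 0.345% in the other. The difference was 1.07 on the log2 scale for ASNS, 0.97 for TRIB3, 2.36 for CHAC1, 1.70 for PHGDH and 0.96 for SLC7A11. For ASNS, TRIB3, PHGDH and SLC7A11 it lay between a larger and a smaller fall, and for CHAC1 between a fall and a rise. Such calls were not particular to the members. In the same direction 5 of 8 amino acid transporters, 5 of 14 unfolded protein response and chaperone genes and 3 of 10 partner and feedback factors were called. In the other direction 0 of these were called. Among the eIF2 genes and the tRNA genes, 0 of 14 and 0 of 13 were called. The call of TRIB3 was lost without any of 6 libraries in turn (adjusted p = 0.053 to 0.11), and that of CHAC1 without any of 4 (adjusted p = 0.051 to 0.12) and without the filter on low values (0.1).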

How the results depend on the processing

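No called difference of the 10 genes turned its direction under the alternatives run. Of the values of single genes under alternatives, 952 kept their side of the threshold, 54 lost it and 9 gained one, and 88 counts stayed within 1.5 times of the main value and 14 did not. With an added 2-fold requirement 6 genes were called with selumetinib in CCNB1-positive cells in place of 10, 2 in place of 7 between treated fractions and 3 in place of 5 for the difference between responses. At an adjusted p of 0.01 the last pair of counts was 4 and 3. A model of only the groups compared called 1 gene between untreated fractions, DDIT4 (adjusted p = 0.048). Leaving out each library in turn gave 7 to 9, 7 to 10, 0 to 0, 4 to 7 and 3 to 6 genes in the order of the comparisons in the text. Where it left a group with 1 library, that library was assumed to vary like the others. CHAC1 was not tested at a minimum of 10 RPM.

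The labels do not say that replicate numbers pair libraries. Deviations of same-numbered libraries from their group means correlated across genes at 0.35 between untreated and 0.43 between treated fractions, and at −0.09 to 0.08 across treatments. With the replicate block, the counts of members called were 9, 10, 0, 7 and 5, as without it. With a replicate block within each treatment, 4 genes passed between untreated fractions (ATF4, DDIT3, DDIT4 and CHAC1), 7 between treated ones and 8 for the difference between responses, and among all genes 1923, 6671 and 3850 passed in place of 408, 3077 and 758. Over all genes, other counts beyond 1.5 times were 217 at an adjusted p of 0.01, 259 without the filter and 244 with quantile normalization between untreated fractions, 1338 at 0.01 and 908 at 2-fold between treated ones, and 426 and 496 for the difference between responses at 0.01 and without the filter. With the 2-fold requirement they were 6758 and 4874 with selumetinib in the negative and positive fraction, in place of 10530 and 9288, and 255 between untreated fractions. Leaving out each library in turn gave 224 to 455 between untreated fractions, 1156 to 4279 between treated ones and 489 to 1806 for the difference between responses, with 4279 and 1806 both without selumetinib-treated CCNB1-negative replicate 1. The causes were not tested. Genes with few reads, as CHAC1 with 17 to 116, are limited by depth.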
